A study of Mus musculus with 6 samples.

Results

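Apoptosis genes of the BCL2, caspase and inhibitor-of-apoptosis (IAP) families were compared between adrenal glands of mice with and without Cre-driven targeting of the kinases MST1 and MST2. The genes were chosen by symbol, with earlier results of these data known. The rule took symbols starting with Bcl2, numbered caspases and Birc genes other than Birc5. It also took a short set of partners such as Bak1, Mcl1, Apaf1, Diablo, Xiap, Fas, Fadd and Cflar. This gave 41 genes of the 19505 genes with a symbol on the array, each represented by a single probe set. These 41 do not cover every member of the families, and Bax is among those not analysed here.

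Whole adrenal glands came from female mice aged 2 months, with 1 Affymetrix whole-transcript array per animal. Control mice (n = 3) had the genotype Mst1flox/flox;Mst2flox/flox and no Cre. Mutant mice (n = 3) had the same floxed alleles together with the Nr5a1-cre transgene, Mst1flox/flox;Mst2flox/flox;Nr5a1-cre. Nr5a1 is expressed in steroid-producing cells, so recombination is directed to the cortex. Which cells recombined was not measured here, and other cell types of the whole gland may keep both genes. No group carried Cre without floxed alleles, so effects of the transgene and of the deletion cannot be told apart.

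Apoptosis through mitochondria is set by binding among BCL2 proteins. Survival members such as BCL2, BCL-XL and MCL1 hold back the pore-forming BAX and BAK, and BH3-only proteins such as BIM release them. Cytochrome c then assembles APAF1 and caspase 9 into the apoptosome, which activates executioner caspases, and IAP proteins restrain caspases until SMAC, encoded by Diablo, displaces them. In the adrenal cortex, cells are made near the capsule, move inward and are lost at the inner border. MST1 and MST2 are themselves cleaved by caspases, and the Hippo chain they head restrains the coactivators YAP and TAZ.

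The glands carried the signals of their tissue. All 9 measured markers of cortical steroid cells had mean log2 signals between 17.15 and 19.06, and the 7 measured chromaffin markers of the medulla lay between 9.92 and 16.50. Median log2 signal per array ranged from 6.76 to 6.83 over 22206 probe sets. The array's 23 background probe sets spanned 2.53 to 7.32, which serves as a guide to dim genes. Of the targeted kinase genes, only Stk4, which encodes MST1, is reported here. Stk4 measured 8.32, 8.66 and 8.94 in controls and 8.14, 8.36 and 8.46 in mutants. The log2 change was -0.32 (SE 0.19, limma adjusted p = 0.623), with overlapping groups. No source used here says which exons its probes cover, so the value does not check the labels.

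None of the apoptosis genes passed the test between mutant and control glands. In limma's moderated test, adjusted by Benjamini-Hochberg over all probe sets, 0 of 41 rose and 0 of 41 fell at a threshold of 0.05, where 0.0721% of all probe sets passed (0.054% higher and 0.018% lower in mutants). The smallest adjusted p was 0.281, for Bcl2l11. At an unadjusted p under 0.05 there were 6 genes, or 14.6%, beside 10.4% of all probe sets. These were Bcl2l11, Bcl2l14 and Diablo with lower means in mutants, and Bcl2a1d, Casp1 and Bcl2l1 with higher means. That is 3 genes in each direction (7.32%), beside 5.42% of all probe sets higher and 4.96% lower. Bcl2l14, Bcl2a1d and Casp1 had both group means within the background range, as did 23 of the 41 genes.

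Sizes of change in the families were close to those over the whole array. The median log2 change was 0.06, beside -0.01 over all probe sets, and 24 genes (58.5%) lay above 0, beside 48.0% of all probe sets. A log2 change of at most 0.2 in either direction was measured for 24 genes (58.5%), beside 57.5% of all probe sets. A log2 change of at most 0.5 was measured for 38 genes (92.7%), beside 91.5% of all probe sets, and the 3 beyond it were Bcl2l11, Casp1 and Bcl2a1d. Standard errors ranged from 0.14 to 0.28, and the number of animals limits the precision.

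**Figure D1:**
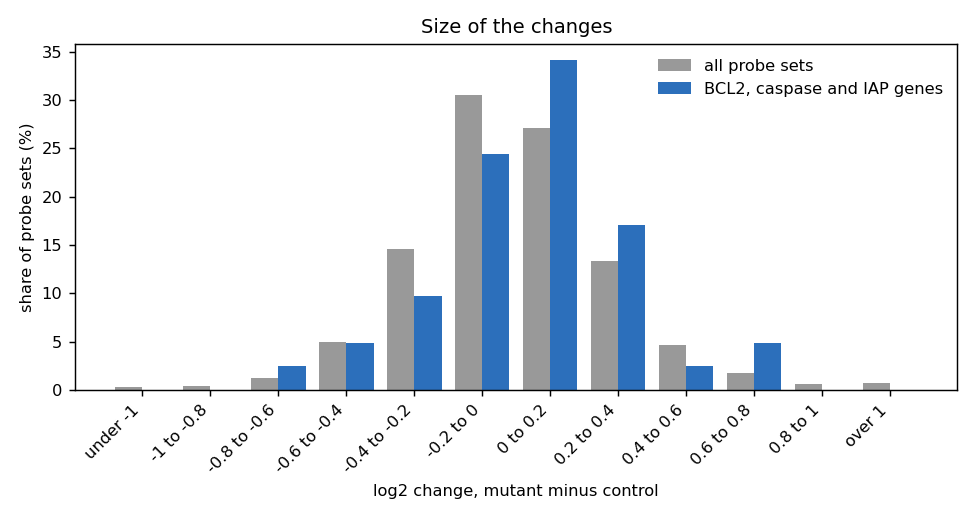
Share of probe sets (%, vertical axis) in each range of log2 change, mutant minus control (horizontal axis), for all 22206 probe sets (grey) and the 41 BCL2, caspase and IAP genes (blue). The apoptosis genes centre near 0 with a median of 0.06, and none exceeds 1 in either direction.

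Groups did not overlap for 8 of the 41 genes, or 19.5%, beside 16.4% of all probe sets. All mutants lay above all controls for Bcl2, Bcl2l1, Bak1 and Casp12, and below them for Bcl2l11, Bcl2l13, Bcl2l14 and Diablo. That is 4 genes in each direction (9.76%), beside 8% of all probe sets higher and 8.36% lower, so the shares are close to those of the whole array.

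**Figure D2:**
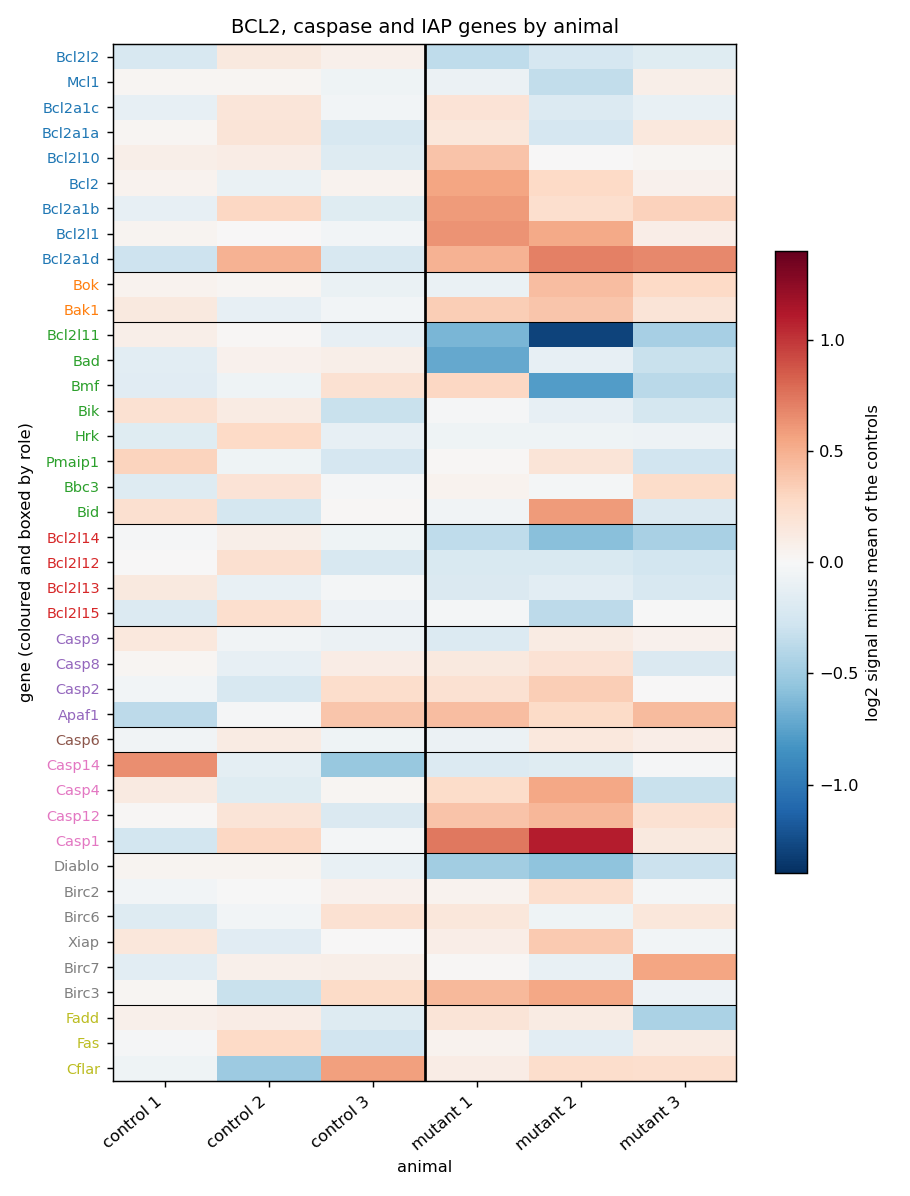
Log2 signal of each of the 41 genes in each animal minus the mean of the controls (colour scale), with genes in rows grouped by role and animals in columns. Bcl2l11 and Diablo are blue in all 3 mutants, Bcl2l1 is red mainly in mutants 1 and 2, and 33 of the 41 rows have overlapping groups.

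Among BH3-only genes, Bcl2l11 had the log2 change of greatest size of the 41 genes with all 6 animals in the fit. Bcl2l11 encodes BIM, which binds every major survival protein of the family and is a main trigger of death when trophic signals are withdrawn. Its log2 signal was 11.70, 11.64 and 11.50 in controls and 10.98, 10.32 and 11.15 in mutants. Every mutant lay below every control, and mutant 2 was the lowest. The log2 change was -0.80 (SE 0.22, 95% interval -1.31 to -0.29), a 1.74-fold lower mean, and it did not pass over all probe sets (limma adjusted p = 0.281). Without mutant 2 the log2 change was -0.55, smaller in size than that of Bcl2a1d (0.58), and without control 2 it was -0.79 beside 0.88 for Bcl2a1d and 0.80 for Casp1, so its rank rests on single animals.

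The promoter windows of Bcl2l11 were read because BIM is a textbook target of FOXO factors, which MST1 can phosphorylate. RefSeq sequence of build GRCm38.p6 gave windows of 300 bases, 250 before and 50 after each annotated start, for 38 of the 41 genes. The FOXO motif GTAAACA was searched on both strands (reverse TGTTTAC). It occurred in 1 of the 2 windows of Bcl2l11, where it begins 227 bases before the start, and is shown in capitals in that window at chr2:128125788-128126087, plus strand:

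Bcl2l11 promoter window: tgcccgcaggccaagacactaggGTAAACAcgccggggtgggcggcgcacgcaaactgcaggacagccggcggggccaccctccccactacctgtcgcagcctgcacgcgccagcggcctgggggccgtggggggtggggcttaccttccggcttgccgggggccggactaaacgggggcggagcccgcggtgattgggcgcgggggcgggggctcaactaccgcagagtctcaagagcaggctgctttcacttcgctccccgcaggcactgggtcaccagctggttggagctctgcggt

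The motif was present in 3.65% of the 32851 windows of all genes and in 4 of the 51 windows of the apoptosis genes (7.84%). Besides Bcl2l11, windows of Bbc3 and Casp4 held it. Their log2 changes were 0.09 and 0.16, opposite in sign to that of Bcl2l11, with means within the background range. A match describes these letters only and shows no binding.

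The other BH3-only genes differed less. Bad, whose protein is held inactive by growth factor signalling, measured 7.17, 7.38 and 7.40 in controls and 6.60, 7.21 and 7.01 in mutants. Mutant 2 lay above control 1, so the groups overlapped (log2 change -0.37, SE 0.19, limma adjusted p = 0.544), and the log2 change was -0.20 without mutant 1. Bmf, which senses detachment from matrix, measured 5.81, 5.91 and 6.18 in controls and 6.26, 5.19 and 5.59 in mutants. Mutant 1 was the highest of the 6 animals for Bmf and mutant 2 the lowest, with a log2 change of -0.28 (SE 0.27). It was -0.58 without mutant 1 and -0.038 without mutant 2, so single animals set its size.

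Bid, which carries the caspase 8 signal to mitochondria, measured 4.89, 4.42 and 4.69 in controls and 4.62, 5.27 and 4.47 in mutants. The log2 change of 0.12 (SE 0.24) was -0.12 without mutant 2, and all its values were within the background range. Bik, Hrk, Pmaip1 and the p53 target Bbc3 had log2 changes from -0.13 to 0.09. Of the 8 BH3-only genes, 2 lay above 0 and 6 below, 0 passed, and 7 had both means within the background range. Their median was -0.09, beside -0.01 over all probe sets.

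**Figure D3:**
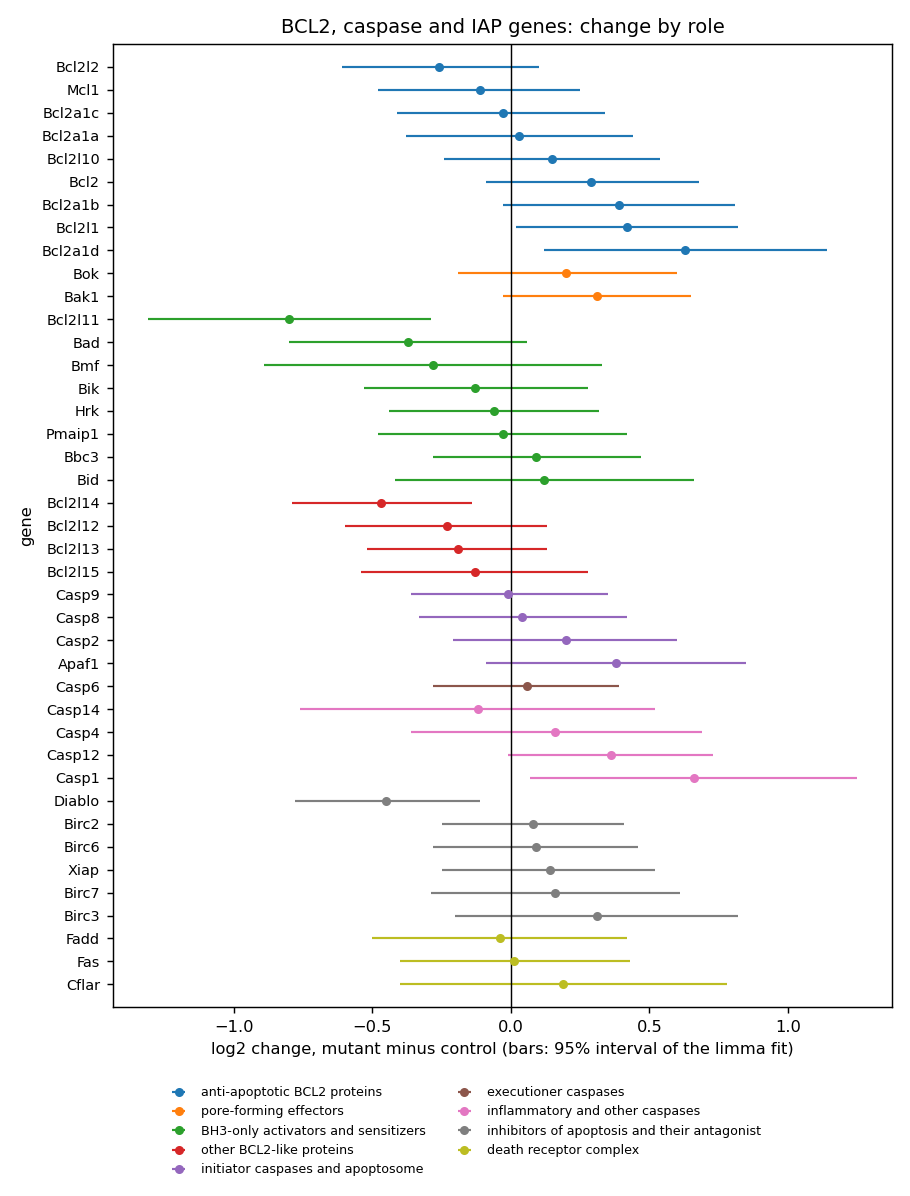
Log2 change, mutant minus control (horizontal axis), of each of the 41 genes (vertical axis), coloured by role, with bars for the 95% interval of the limma fit (n = 3 animals per group). Intervals of 6 genes leave out 0 before adjustment, and 0 genes pass after it.

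Among survival genes, Bcl2l1 and Bcl2 had higher means in mutants. Bcl2l1 encodes BCL-XL, which guards mitochondria in many cell types, and it measured 10.92, 10.88 and 10.84 in controls and 11.51, 11.41 and 10.97 in mutants. Mutants 1 and 2 stood clear of the controls, and mutant 3 lay just above them. The log2 change was 0.42 (SE 0.18, 95% interval 0.02 to 0.82, limma adjusted p = 0.466).

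Bcl2, the founding survival gene, measured 10.86, 10.72 and 10.86 in controls and 11.36, 11.09 and 10.87 in mutants. Mutant 3 lay above the highest control by 0.01 log2 units. The log2 change was 0.29 (SE 0.17, limma adjusted p = 0.605), and 0.17 without mutant 1.

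Mcl1, a short-lived survival protein, was bright in all animals. It measured 15.39, 15.39 and 15.30 in controls and 15.28, 15.02 and 15.44 in mutants, with overlapping groups. Its log2 change was -0.11 (SE 0.16), with a 95% interval from -0.48 to 0.25. Bcl2l2, which encodes BCL-W, measured 7.90, 8.26 and 8.19 in controls and 7.76, 7.88 and 7.95 in mutants. Mutant 3 lay above control 1, and the log2 change was -0.26 (SE 0.16, limma adjusted p = 0.638). Bcl2l10 measured 5.06, 5.08 and 4.80 in controls and 5.38, 4.99 and 5.01 in mutants, within the background range (log2 change 0.15, SE 0.17).

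The Bcl2a1 genes, survival genes of blood cells, are near-identical copies, and their probe sets may share signal. Bcl2a1d measured 5.03, 5.81 and 5.10 in controls and 5.81, 6.03 and 5.99 in mutants. Control 2 reached the level of mutant 1, and the log2 change was 0.63 (SE 0.22, limma adjusted p = 0.388). Bcl2a1b measured 5.47, 5.88 and 5.42 in controls and 6.19, 5.82 and 5.91 in mutants (log2 change 0.39, SE 0.18), with mutant 2 below control 2, whereas Bcl2a1a and Bcl2a1c had 0.03 and -0.03. All 4 copies had both means within the background range. Over the 9 survival genes, 6 lay above 0 and 3 below, 0 passed, and the median was 0.15 beside -0.01 over all probe sets.

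TEAD factors, the DNA-binding partners of YAP and TAZ, bind GGAATG, and this motif was searched on both strands (reverse CATTCC) in the same windows. It occurred in 14.7% of the windows of all genes and in 6 of the 51 windows of the apoptosis genes (11.8%). The holders were Bcl2l1, Bcl2l14, Birc7, Casp14, Hrk and Mcl1, whose log2 changes ran from -0.47 to 0.42. For Bcl2l1 it lay in 1 of 3 windows, at chr2:152831679-152831978, minus strand, beginning 108 bases before the start. That window is shown with the motif in capitals because Bcl2l1 had the smallest unadjusted p of the genes with a higher mean whose groups did not overlap:

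Bcl2l1 promoter window: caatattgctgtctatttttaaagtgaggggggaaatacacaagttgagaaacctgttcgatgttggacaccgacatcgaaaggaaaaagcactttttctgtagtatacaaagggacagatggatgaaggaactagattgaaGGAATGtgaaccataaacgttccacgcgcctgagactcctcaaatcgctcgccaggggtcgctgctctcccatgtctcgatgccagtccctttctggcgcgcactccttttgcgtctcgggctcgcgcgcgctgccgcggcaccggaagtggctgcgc

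Of the pore-forming genes, Bak1 encodes BAK, which permeabilises the outer mitochondrial membrane. Bak1 measured 10.13, 9.87 and 9.95 in controls and 10.34, 10.38 and 10.17 in mutants. The groups did not overlap, with a gap of 0.04 log2 units between mutant 3 and control 1, and the log2 change was 0.31 (SE 0.15, limma adjusted p = 0.531). Bok, a relative of BAX and BAK, measured 6.38, 6.36 and 6.24 in controls and 6.24, 6.76 and 6.61 in mutants. Mutant 1 lay just below the controls, the log2 change was 0.20 (SE 0.17), and both means were within the background range.

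The remaining BCL2-like genes had log2 changes below 0 in 4 of 4 cases, and 0 passed. Bcl2l14 measured 5.21, 5.31 and 5.17 in controls and 4.87, 4.65 and 4.78 in mutants. Its groups did not overlap and its animals were close together within each group. The log2 change was -0.47 (SE 0.14, limma adjusted p = 0.316), and both means lay within the background range. Bcl2l13, a protein of the outer mitochondrial membrane, measured 10.26, 10.02 and 10.09 in controls and 9.92, 9.97 and 9.90 in mutants. The groups did not overlap, and the log2 change was -0.19 (SE 0.14, limma adjusted p = 0.704). Bcl2l12 measured 5.54, 5.75 and 5.31 in controls and 5.32, 5.32 and 5.27 in mutants. Control 3 lay among the mutants (log2 change -0.23, SE 0.16). Bcl2l15 had a log2 change of -0.13 (SE 0.18). Both genes lay within the background range.

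**Figure D4:**
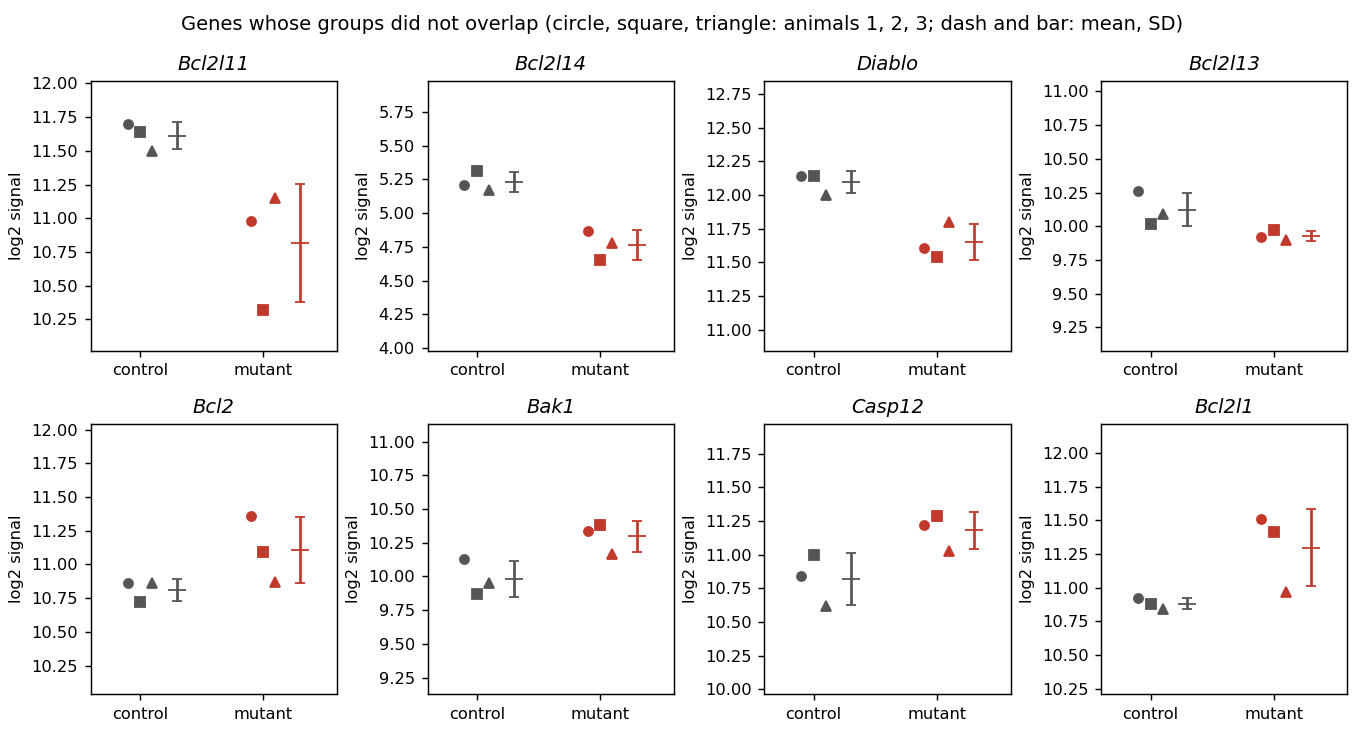
Log2 signal (vertical axis, 2 log2 units in every panel) of the 8 genes whose groups did not overlap, with a symbol for each of 3 control (grey) and 3 mutant (red) animals and the mean ± SD beside them. Bcl2l11 shows the widest gap in means, and for Bcl2 mutant 3 lies next to the controls.

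No initiator caspase passed, and the groups overlapped for each. Casp8, which starts the death receptor branch, measured 14.24, 14.09 and 14.31 in controls and 14.35, 14.41 and 14.01 in mutants. Mutants held both the highest and the lowest value, and the log2 change was 0.04 (SE 0.16, 95% interval -0.33 to 0.42). Casp9, the caspase of the apoptosome, measured 6.84, 6.64 and 6.61 in controls and 6.50, 6.80 and 6.75 in mutants, with a log2 change of -0.01 (SE 0.16, 95% interval -0.36 to 0.35). Its values stayed within the background range.

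Apaf1, the scaffold of the apoptosome, measured 6.35, 6.70 and 7.11 in controls and 7.15, 6.99 and 7.16 in mutants. Control 3 lay above mutant 2, and the log2 change was 0.38 (SE 0.21, limma adjusted p = 0.584), or 0.19 without control 1. Both means of Apaf1 lay within the background range. Casp2, an initiator tied to cell cycle and ploidy checks, measured 9.79, 9.61 and 10.08 in controls and 10.04, 10.18 and 9.84 in mutants, with overlapping groups (log2 change 0.20, SE 0.18). Casp6, the executioner caspase analysed here, cleaves lamin A. Its values ran from 11.41 to 11.64 over the 6 animals, with a log2 change of 0.06 (SE 0.15, 95% interval -0.28 to 0.39), and they describe Casp6 alone, not the executioner step as a whole.

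Inflammatory caspases had higher means in mutants without passing. Casp1, which processes interleukin precursors and opens the way to pyroptosis, measured 6.40, 6.95 and 6.63 in controls and 7.40, 7.76 and 6.80 in mutants. Mutant 3 lay below control 2, and the log2 change of 0.66 (SE 0.26, limma adjusted p = 0.437) was 0.44 without mutant 2. Casp4 had a log2 change of 0.16 (SE 0.23). Its value was highest in mutant 2 (7.05), as for Casp1, and lowest in mutant 3 (6.20). Both means of Casp1 and of Casp4 lay within the background range. Casp12, a caspase tied to the endoplasmic reticulum, measured 10.84, 11.00 and 10.62 in controls and 11.22, 11.29 and 11.03 in mutants. Its groups did not overlap, by a margin of 0.03 log2 units (log2 change 0.36, SE 0.16, limma adjusted p = 0.496). Casp14, which acts in cornifying skin, stayed between 3.64 and 4.82, within the background range, as did all 6 measured keratinocyte markers.

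No macrophage marker passed (0 of 11 measured, lowest limma adjusted p = 0.0795), and groups overlapped for 9 of them. Log2 changes lay above 0 for 10 of the 11, as for Casp1, and 3 had both means within the background range. Their mean log2 signal ran from 9.14 to 9.23 in controls and from 9.19 to 9.81 in mutants, so the groups overlapped, with mutant 2 the highest. The 10 measured lymphocyte markers ran from 5.47 to 5.62 and from 5.60 to 5.86, and the 7 neutrophil markers, all within the background range, from 4.0 to 4.49 and from 4.18 to 4.50. The part of these cells in the values of Casp1, Casp4 and the Bcl2a1 genes was not tested. In whole glands a change in the number of cells of a type and a change in RNA per cell cannot be told apart.

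No vascular, stromal or fat marker passed either (lowest limma adjusted p 0.239 for endothelial, 0.227 for smooth muscle and pericyte, 0.257 for fibroblast and 0.704 for fat markers). At an unadjusted limma p under 0.05 there were 4 of 9 markers in each of the first 3 lists, all higher in mutants. That is 44.4%, beside 10.4% of all probe sets, and 0 of 8 for fat. Groups did not overlap for 55.6% of endothelial, 33.3% of smooth muscle and pericyte, 22.2% of fibroblast and 0 of 8 fat markers. The share over all probe sets was 16.4%. Endothelial markers averaged 12.08 to 12.32 in controls and 12.52 to 12.66 in mutants, without overlap and with 8 of 9 above 0. Smooth muscle and pericyte markers averaged 8.89 to 9.16 and 9.33 to 9.79 (7 of 9 above 0), also without overlap, and fibroblast markers 9.75 to 10.33 and 10.18 to 11.16 (8 of 9), with overlap. Fat markers averaged 7.59 to 10.61 in controls and 8.85 to 12.14 in mutants (8 of 8), with overlap. With the fat marker mean as a covariate, a fit added after seeing the data, the log2 change was 0.36 for Bcl2l1 and 0.22 for Bcl2. Without it these were 0.42 and 0.29. The other genes whose groups did not overlap had 0.32 (Bak1), 0.37 (Casp12), -0.79 (Bcl2l11), -0.17 (Bcl2l13), -0.49 (Bcl2l14) and -0.41 (Diablo). In the same order, the values without the covariate were 0.31, 0.36, -0.80, -0.19, -0.47 and -0.45. Some genes with overlapping groups shifted further. Bmf had -0.28 without the covariate and -0.48 with it, and Apaf1 had 0.38 without it and 0.26 with it. The marker mean of no other cell type was used as a covariate. Cortical steroid markers averaged 18.15 to 18.21 and 18.02 to 18.22, and chromaffin markers 13.42 to 14.55 and 13.46 to 13.63. Kidney markers averaged 4.92 to 5.06 and 4.95 to 5.04. The part of the other cell types in the values of the apoptosis genes was not tested.

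No gene of the IAPs or of their antagonist SMAC, encoded by Diablo, passed. Diablo measured 12.14, 12.14 and 12.0 in controls and 11.61, 11.54 and 11.80 in mutants. Every mutant lay below every control, and the log2 change was -0.45 (SE 0.15, 95% interval -0.78 to -0.11), which did not pass (limma adjusted p = 0.353). It ranged from -0.52 to -0.39 over all alternatives, including each animal left out in turn.

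Xiap, the IAP that blocks caspases directly, measured 11.31, 10.99 and 11.16 in controls and 11.24, 11.52 and 11.11 in mutants (log2 change 0.14, SE 0.17). Birc2 and Birc3 encode cIAP1 and cIAP2, ubiquitin ligases of tumour necrosis factor signalling, and lie side by side in the genome. Birc2 measured 8.81, 8.84 and 8.91 in controls and 8.90, 9.08 and 8.82 in mutants (log2 change 0.08, SE 0.14). Birc3 measured 10.06, 9.72 and 10.30 in controls and 10.48, 10.57 and 9.96 in mutants (log2 change 0.31, SE 0.22, limma adjusted p = 0.693), or 0.15 without control 2, 0.19 without mutant 2 and 0.50 without mutant 3. Groups overlapped for each of these genes, and mutant 3 had the lowest mutant value in each.

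Birc6, a very large IAP with ubiquitin-conjugating activity, had a log2 change of 0.09 (SE 0.16), and Birc7, within the background range, 0.16 (SE 0.20). All 5 measured IAP genes thus lay above 0, by 0.08 to 0.31, with intervals that all include 0, and 0 passed.

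No gene of the death receptor complex passed, and the groups overlapped for each. Fas, the receptor, measured 6.72, 7.02 and 6.47 in controls and 6.79, 6.59 and 6.86 in mutants (log2 change 0.01, SE 0.18, 95% interval -0.40 to 0.43), and the sign of this change turned under quantile normalization, a common median and array weights. Cflar, which encodes FLIP, a caspase 8 decoy, measured 11.66, 11.21 and 12.29 in controls and 11.82, 11.97 and 11.95 in mutants. The mutants were close together inside the wide span of the controls, with a log2 change of 0.19 (SE 0.26), and -0.06 without control 2. Fadd, the adaptor that recruits caspase 8, had a log2 change of -0.04 (SE 0.20).

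Other genes of the cell death pathway were read from 4 lists of death ligands and receptors, p53 targets, mitochondrial factors, and necroptosis and pyroptosis genes. Of 64 listed genes 59 were measured, and Trp53 and Ripk1 are among those not analysed here. Of the 59, 0 rose and 0 fell past the threshold (limma, adjusted over all probe sets). An unadjusted limma p under 0.05 was found for 12 (20.3%), and groups did not overlap for 13 (22.0%). The same shares over all probe sets were 10.4% and 16.4%. Their median log2 change was -0.05.

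The 4 genes of smallest unadjusted p include 3 of the mitochondrial list. Endog, a nuclease held between the mitochondrial membranes, measured 6.77, 6.85 and 6.86 in controls and 6.04, 6.02 and 6.17 in mutants. The animals of each group lay close together and apart from the other group. The log2 change was -0.75 (SE 0.14, limma adjusted p = 0.105), and both means were within the background range.

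Htra2, a mitochondrial protease that, like SMAC, can bind IAPs once released, measured 11.22, 11.39 and 11.18 in controls and 12.03, 12.19 and 11.74 in mutants. Every mutant lay above every control (log2 change 0.72, SE 0.17, limma adjusted p = 0.191), opposite in sign to Diablo. Bnip3, a BH3-like receptor for the removal of mitochondria, measured 12.05, 11.87 and 11.77 in controls and 11.08, 11.34 and 11.42 in mutants. Every mutant lay below every control (log2 change -0.61, SE 0.16, limma adjusted p = 0.252). Tnfrsf12a, the receptor for the cytokine TWEAK, measured 13.34, 13.35 and 13.21 in controls and 13.61, 13.86 and 13.96 in mutants, without overlap (log2 change 0.51, SE 0.15, limma adjusted p = 0.315).

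**Figure D5:**
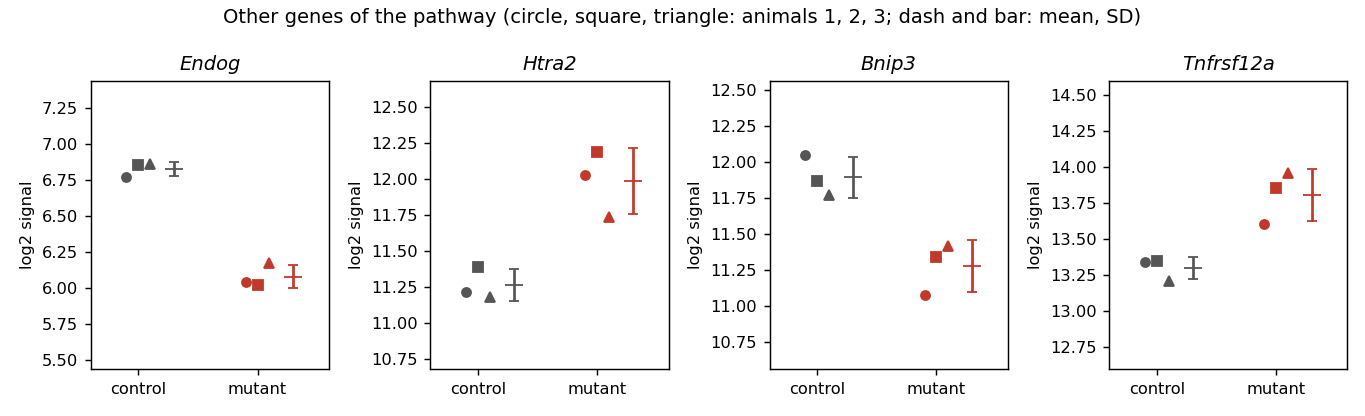
Log2 signal (vertical axis, 2 log2 units in every panel) of Endog, Htra2, Bnip3 and Tnfrsf12a in 3 control (grey) and 3 mutant (red) animals, 1 symbol per animal, with the mean ± SD beside them. Groups are apart in all 4 panels, and adjusted p-values run from 0.105 to 0.315.

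By list, the 15 death ligand, receptor and adaptor genes had a median log2 change of -0.08 with 6 above 0. The 14 genes measured of the p53 list, without Trp53 itself, had -0.07 with 5 above 0. The cell cycle inhibitor Cdkn1a had a log2 change of -0.20 (SE 0.18). The 14 mitochondrial genes had -0.04 with 6 above 0, and cytochrome c itself, Cycs, had a log2 change of 0.01 (SE 0.14). The 16 necroptosis and pyroptosis genes had 0.03 with 9 above 0, and 13 of them had both means within the background range.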

How the data were processed

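Per the labels, total RNA of whole glands was hybridised to 1 array per animal. The authors deposited 1 log2 signal for each probe set and animal; the scale follows from the values' range. Per the submitters' processing notes, Transcriptome Analysis Console 4.0 was used; no source used here describes normalization or build, and a step equalising the arrays would remove any shift common to most genes. Control probe sets were left out (6546 negative or positive controls, 94 others). Of the 22206 left, 19572 had 1 gene symbol, 0 several and 2634 none. All 41 genes matched NCBI identifiers of GRCm38.p6. The fit used limma 3.58.1 (lmFit, eBayes; R 4.3.3) over 6 arrays without covariates or filter, two-sided, with Benjamini-Hochberg adjustment over 22206 probe sets. SDs are over animals; SEs and 95% intervals are moderated. The procedure was tested on simulated data whose planted changes were larger than any change of the 41 genes. That test does not show how often changes of their size would pass.

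Genes, lists and motifs were chosen with earlier results of these data known, and no list was tested. Of 44 genes listed, 3 are not reported here. By rule, values per animal were given for 14 measured genes of 17 fixed ones, the 14 others of smallest unadjusted p, and the 4 pathway genes of smallest p. Alternatives were other normalizations, a filter on dim probe sets, other variance models, array weights, a replicate block, averaged probe sets per gene, each animal left out and, added after seeing the data, covariates.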

Additional observations from a re-analysis of the deposited data

How the results depend on the processing

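None of the 41 measured BCL2, caspase and IAP genes and none of the 59 measured pathway genes passed under the 15 alternatives that held them (22 of the 41 were in the fit without dim probe sets), and the smallest adjusted p of the 41 genes was 0.124 (limma with trend and robust), for Bcl2l11. The count over all probe sets was 16, and 38 with quantile normalization, 32 with a common median, 92 without dim probe sets, 175 with trend and robust, 48 with array weights, and 8 and 2 with the negative control signal and the adipocyte mean as covariates. It was 1 to 15 with 1 animal left out, namely 1 without control 1, 2 or 3 and 6 without mutant 2. Deviations from the group means correlated little between animals of the same replicate number (-0.09, 0.082 and -0.07), which cannot exclude a pairing of small effect. With the replicate number as a block the count was 1. Genes above 0 numbered 14 of the 22 left without dim probe sets, and 22 to 27 with 1 animal left out. Genes whose groups did not overlap numbered 10 to 15 with 1 animal left out (24.4% to 36.6%), beside 24.1% to 30.2% of all probe sets in the same fits; the highest count, without mutant 3, stood beside 27.8%. The median log2 change of the 41 genes ran from 0.01 to 0.07 with 1 animal left out. Of 410 values for 28 named genes, 393 kept their sign and 17, of 5 genes, turned, each near 0: Fas to -0.012 (array weights), -0.015 (common median) and -0.014 (quantile), Casp8 to -0.0031 and Casp9 to 0.075 with the adipocyte covariate, and Casp9 to 0.016 with the negative control covariate. With 1 animal left out, Bid ran from -0.12 to 0.28, Casp8 from -0.035 to 0.17, Casp9 from -0.067 to 0.084, Cflar from -0.062 to 0.48 and Fas from -0.12 to 0.15. The cause of these turns was not tested.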
